A study of Mus musculus with 28 samples.

Results

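The nuclear-encoded respiratory chain genes were followed through 14 days of skin wound healing. They were the rows of the count table whose symbol starts with Nduf, Uqcr, Cox4 to Cox8 or Atp5, together with Sdha, Sdhb, Sdhc and Sdhd. Of 96 matching symbols, Cox7a1 and Cox8b were left out by name and 1 was left out as a pseudogene symbol, which gave 93 genes of the 29068 in the table. They comprised 42 complex I subunits, 8 complex I assembly factors (the Ndufaf genes), 4 genes of complex II, 8 of complex III, 14 of complex IV and 17 of complex V. The grouping follows the symbols, so Ndufa4 and its relative Ndufa4l2 were counted with complex I although NDUFA4 is now assigned to complex IV. Ndufb4b, Ndufb4c and Ndufs6b are near copies of Ndufb4 and Ndufs6, and their reads may have been shared in counting.

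Total RNA was sequenced from the wounded back skin of C57BL/6J mice during natural wound healing, with 4 libraries on each of days 0, 3, 5, 7, 10, 12 and 14 and 28 libraries in all. The mice, called MLKL+/+ in the study, were 8-week-old littermates of both sexes with no other treatment, and the wound was a 6-mm full-thickness punch. The labels call the earliest group day 0 and the control, while the study counts the day of injury as day 1. The design text speaks of 5 repeats at each time, and 4 were analysed here. The whole wound with scab and epithelial margin was taken, so each library holds a mixture of cells whose makeup changes between days, and fewer cells of a type cannot be told apart from less RNA per cell.

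The respiratory chain lies in the inner mitochondrial membrane. Complex I takes electrons from NADH and complex II takes them from succinate, complex III passes them on to cytochrome c, and complex IV hands them to oxygen. Complexes I, III and IV pump protons, and complex V, the ATP synthase, uses the proton gradient to make ATP. Most subunits are encoded in the nucleus and the rest in mitochondrial DNA, whose genes were not analysed here. Some subunits exist as isoforms that replace each other in muscle, in testis or at low oxygen. Chain subunits are abundant in tissues that burn fat and sugar at a high rate, such as heart, skeletal muscle and brown fat.

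Many nuclear chain genes share promoter elements, among them a palindrome bound by nuclear respiratory factor 1 (NRF1), a regulator of such genes. A window from 250 bases before to 50 bases after the start site was taken from RefSeq (GRCm38.p6) for 75 of the 93 genes. This palindrome, which reads the same on both strands and is spelled in capitals below, stood in the windows of 7 of these 75 genes (9.33%), against 0.971% of 32851 windows of all genes and 1.79% of the 14101 tested genes with a window. A looser form with 1 base free, which includes the first, stood in 19 genes (25.3%), against 4.60% of all windows and 9.01% of the tested genes. The ETS letters CCGGAAG, searched on both strands, stood in 19 genes (25.3%), against 8.86% of all windows and 16.1% of the tested genes. The YY1 letters CCATNTT, searched on both strands, stood in 23 genes (30.7%), against 16.1% of all windows and 16.9% of the tested genes. These matches describe letters and not sites of binding. The 5 palindromes that lay before the start site with 15 bases on either side are shown because this was the longest motif found, and Cox6a1 among them had the largest rise of all 93 genes on day 3. Each is given 5′ to 3′ on the strand of the gene, with the palindrome in capitals.
Ndufaf4: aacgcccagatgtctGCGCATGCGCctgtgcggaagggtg
Atp5k: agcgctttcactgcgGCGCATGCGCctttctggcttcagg
Cox6a1: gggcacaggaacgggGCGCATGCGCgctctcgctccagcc
Atp5g2: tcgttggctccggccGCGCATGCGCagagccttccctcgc
Ndufa11: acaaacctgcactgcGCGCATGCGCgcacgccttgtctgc
The stretch of Ndufaf4 lies at chr4:24897955-24897994 on the plus strand, and the palindrome ends 103 bases before the start site. That of Atp5k lies at chr5:108434425-108434464 on the minus strand and ends 40 bases before it. That of Cox6a1 lies at chr5:115349096-115349135 on the minus strand and ends 152 bases before it. Those of Atp5g2 (chr15:102671065-102671104, minus strand) and Ndufa11 (chr17:56717687-56717726, plus strand) end 32 and 50 bases before it. Ndufaf5 and Uqcrc1 also held the palindrome, but not with 15 bases to spare before the start site. On day 12 against day 0, Ndufa11 (-0.26), Atp5k (-0.23) and Atp5g2 (-0.22) were lower on the log2 scale, while Ndufaf4 (0.051) and Cox6a1 (0.14) did not pass the test. Leaving out 1 library ended the call of Atp5k in 4 of 8 cases and that of Atp5g2 in 6 of 8, and Ndufa11 (-0.17) did not pass without day 0 replicate 4.

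The libraries held between 36706513 and 40655764 counts. All 93 genes passed the filter on low counts, and each had at least 10 counts in every library (lowest 43). The day 0 libraries were the least even, with a biological coefficient of variation of 26.4% against 5.70% to 10.8% on the later days. Replicates 1 and 4 of day 0 had less signal from fibroblast markers (summed FPKM 5177 and 3092) than replicates 2 and 3 (11867 and 11443), and more from skeletal muscle markers (24475 and 26697, against 16003 and 16602). All 14 muscle markers were lower than on day 0 on every later day. Nothing in the labels says whether the 4 libraries of a day came from 4 animals, so the p-values measure the spread between these libraries.

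Levels between genes were compared in FPKM, which is scaled to gene length. Atp5b, the catalytic beta subunit of the ATP synthase, was the highest with a mean of 735 over all libraries and Cox4i1 (661) was second. The highest genes of complexes I and III were Ndufa4 (414) and Uqcrh (407). The median level was 94.7 for complex I subunits, 148 for complex II, 196 for complex III, 251 for complex IV and 221 for complex V. Complex I assembly factors, which build the complex and are not part of it, were far lower, with a median of 8.98 and a range from 1.19 for Ndufaf6 to 17.9 for Ndufaf8. The 93 genes took from 1.13% to 1.35% of a day 0 library's counts. For day 12 this share was 1.07% to 1.11%, and for day 14 it was 1.52% to 1.67%.

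The chain genes rose modestly in the early wound, were low on day 12 and were high again on day 14. The summed FPKM of the 93 genes was 13644, 12317, 12374 and 14327 in the 4 libraries of day 0. Day 3 libraries ranged from 14877 to 16066 and day 5 libraries from 14698 to 17492. Day 7 libraries ranged from 13727 to 16529, and those of day 10 stayed close together, from 14228 to 14570. On day 12 it was 11863, 12012, 11649 and 11641, and on day 14 it was 18306, 17546, 17125 and 16400. All libraries of day 12 were below all libraries of every other day, and those of day 14 were above all those of days 0, 3, 10 and 12. FPKM is scaled to library totals. Divided by the TMM factors that the test uses, the sums ran from 15634 to 17295 for day 3 and from 15071 to 17220 for day 14, which overlapped, and those of day 12, from 10693 to 11188, stayed below all other days.

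**Figure D1:**
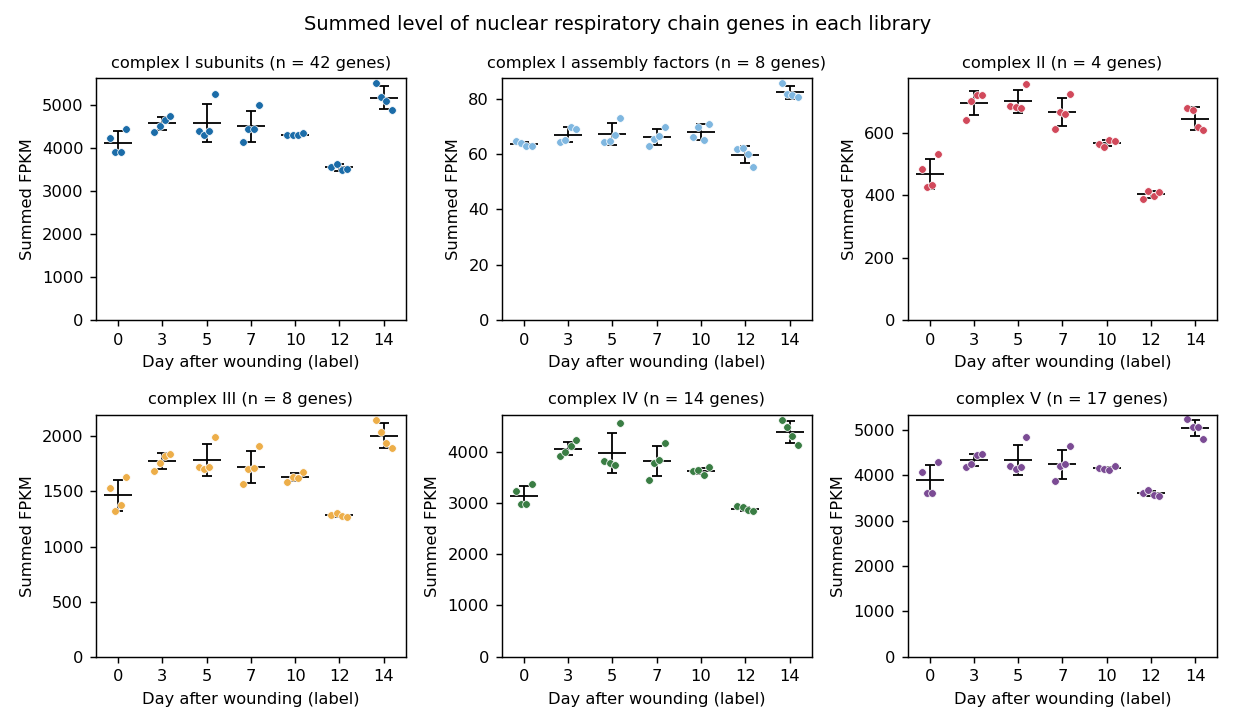
Summed FPKM (y axis, from 0) of each group of chain genes in each of the 28 libraries (points) by the day in the labels (x axis), with the mean (horizontal bar) and SD (whiskers) of 4 libraries. Complex II sums range from 390 to 415 for day 12 against 642 to 723 for day 3, and in every panel day 14 has a higher mean than day 12.

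Each later day was compared with day 0, which answers how far the wound departs from the skin at the start. These comparisons share the 4 day 0 libraries, so their counts are not independent of each other. A gene was called when its adjusted p was under 0.05 in edgeR's quasi-likelihood test. On day 3, 49 of the 93 genes were higher and 8 lower, where 31.8% and 34.8% of all tested genes were called in these directions. On day 5, 48 were higher and 10 lower, beside 29.0% and 30.6% of all genes. The count of 10 was 15 without day 5 replicate 4. It was 6 without day 0 replicate 4 or day 5 replicate 1, 2 or 3, and also with the libraries of the comparison alone. On day 7, 41 were higher and 6 lower, beside 25.6% and 24.8%. On day 10, 21 were higher and 9 lower, beside 23.5% and 26.9%. The 21 became 12 without day 0 replicate 2, 32 without day 0 replicate 4 and 37 with library totals. On day 12, 0 were higher and 75 lower, beside 21.7% and 25.6%. DESeq2 also called 0 higher on that day, and at an unadjusted p under 0.05 edgeR gave 0 as well. On day 14, 60 were higher and 5 lower, beside 28.2% and 34.5%.

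The changes were small for most of the genes. The median log2 fold change was 0.20 on day 3 (1.15-fold), and days 5, 7 and 10 had medians of 0.21, 0.17 and 0.075. Day 12 had a median of -0.30 (0.815-fold) and day 14 of 0.28 (1.21-fold). The median of all tested genes lay between -0.056 and 0.0024. By the criteria of the study's methods (more than 1.5 up or down on the log2 scale with P under 0.05 before adjustment), 1 gene passed on each day from 3 to 12 and 2 passed on day 14. All genes passed at 18.9%, 13.9%, 9.40%, 9.47%, 7.39% and 14.0% on days 3, 5, 7, 10, 12 and 14. The genes that passed were Cox6a2 (days 3, 5, 7, 12 and 14) and Ndufa4l2 (days 10 and 14), and all were lower. By adjusted p, 5 genes were lower than on day 0 on all 6 later days, namely Cox6a2, Ndufa4l2, Cox7a2l, Atp5g1 and the gamma subunit gene Atp5c1. Through the settings, calls were followed for Cox6a2 on days 3, 10 and 14, Ndufa4l2 on days 3 and 14 and Cox7a2l on day 3. No setting ended any of these, apart from the criteria of the study's methods. Such checks are not given here for the other days of these genes. The calls of Atp5g1 and Atp5c1 depended on the setting. Atp5c1 was at -0.16, -0.15, -0.17, -0.23, -0.43 and -0.17 on days 3, 5, 7, 10, 12 and 14. Leaving out 1 library ended its call in 6, 5, 3 and 4 of 8 cases on days 3, 5, 7 and 14, each time with day 0 replicates 1 and 4 among them. The others were all 4 libraries of day 3, day 5 replicates 1, 2 and 3, day 7 replicate 1, and day 14 replicates 2 and 4. Without day 0 replicate 4 these values were -0.049, -0.077, -0.11 and -0.028. On day 14 the call of Atp5c1 was also lost with DESeq2 (-0.14) and under all 3 other scalings, and with day 0 replicates 2 and 3 alone it was lost on every day but day 12. The libraries of the comparison alone ended it on days 3, 5, 7 and 14 (-0.19, -0.17, -0.21 and -0.10). Without a filter it was lost on days 5 and 14 (-0.16 and -0.13). Atp5g1 lost its day 14 call under several settings and its day 10 call (-0.14) with those 2 libraries alone.

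The choice of day 0 libraries weighed on these counts. With replicates 1 and 4 as the only day 0 libraries, 24 genes were higher on day 7, 7 were higher on day 10 and 76 were lower on day 12. With replicates 2 and 3 in their place these counts were 54, 41 and 43. The medians of days 7 and 10 were 0.057 and -0.024 with the first pair and 0.27 and 0.18 with the second. Called on day 12, and lower unless stated, but not called with replicates 2 and 3 as the only day 0 libraries were, among the genes described here, Atp5a1, Atp5b, Atp5g2, Atp5k, Cox5a, Cox5b, Cox6b1, Ndufs8, Uqcrc2, Ndufa11, Ndufs1, Ndufv2, Sdhd, Cycs, Esrra and Gabpa, the last of which had been called higher. Leaving out day 0 replicate 1 or 4 also ended the day 12 calls of Atp5b, Atp5g2, Atp5k, Cox5a, Cox5b, Cox6b1 and Ndufs8. Without day 0 replicate 4 these were at -0.098, -0.11, -0.21, -0.23, -0.13, -0.19 and -0.10, and Cycs (-0.18) did not pass either. Leaving out day 12 replicate 3 ended the calls of Atp5b, Atp5g2, Atp5k, Cox5b and Ndufs8, replicate 4 those of Atp5g2, Atp5k and Cox5b, replicate 2 those of Atp5g2 and Cox5b, and replicate 1 that of Atp5g2. With library totals in place of TMM scaling 38 genes were lower on day 12 with a median of -0.15, while the median of all genes was 0.11. With that scaling the calls of Atp5a1, Atp5b, Atp5g2, Atp5k, Cox5a, Cox5b, Cox6b1, Ndufs8, Uqcrc2, Ndufa11, Ndufs1, Ndufv2, Sdhd and Cycs were lost, with values from -0.05 for Atp5b to -0.17 for Cox5a. With the libraries of the comparison alone those of Atp5b, Atp5g2, Cox5b and Ndufs8 were lost, and with upper quartile scaling or no filter that of Atp5g2. The comparisons within the wound do not use day 0.

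**Figure D2:**
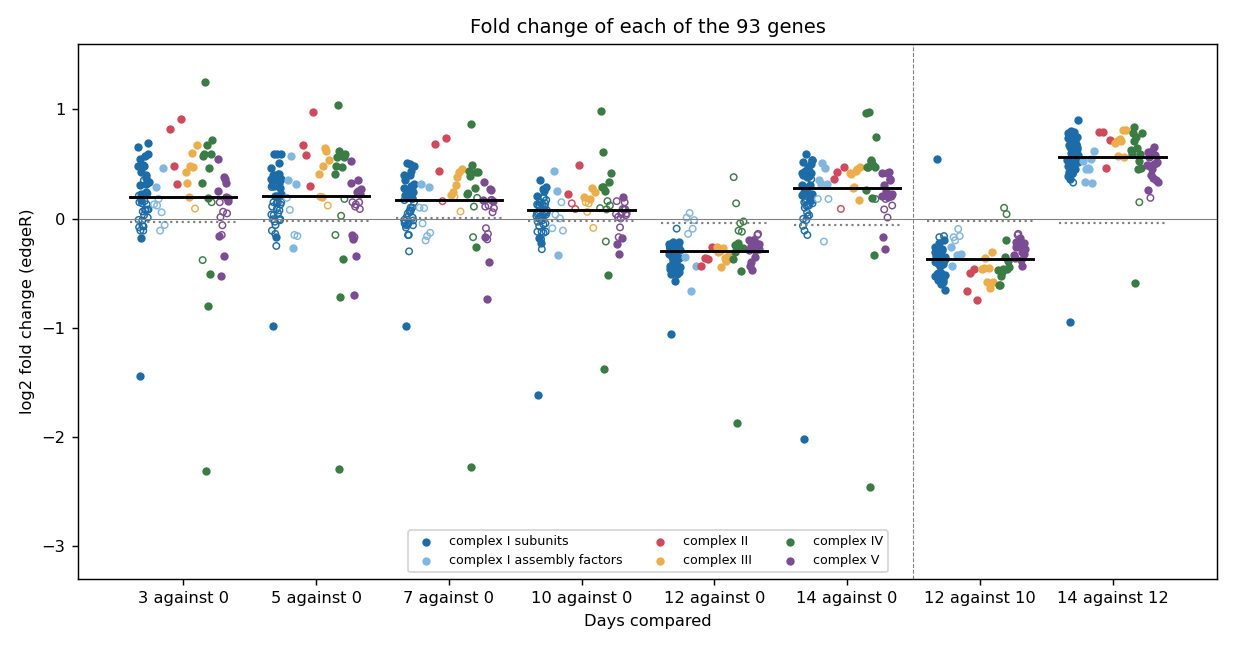
Log2 fold change from edgeR (y axis) of each of the 93 genes in 8 comparisons of days (x axis), coloured by complex, with filled points for an adjusted p under 0.05 and open points otherwise. The black bar is the median of the 93 genes (-0.30 for day 12 against day 0, 0.56 for day 14 against day 12) and the dotted grey bar that of all tested genes.

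Within the wound, 91 of the 93 genes differed between days 3 and 14 in a joint test over the 6 wound days, where 85.1% of all tested genes did so. The exceptions were Ndufb4b and Ndufb4c, both near copies of Ndufb4. From day 3 to day 7, 4 genes were higher and 15 lower (25.8% and 24.2% of all genes), with a median of -0.083, and without day 7 replicate 4 these counts were 1 and 37. With upper quartile scaling or library totals only 4 were lower. The median was then 0.0037 or -0.022, beside 0.11 or 0.082 for all genes. From day 7 to day 14, 27 were higher and 4 lower (27.9% and 33.7% of all genes), with a median of 0.08, and without day 7 replicate 4 they were 51 and 2. The 27 became 17 without day 14 replicate 1 and 55 with library totals.

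The steps into and out of day 12 were compared after the day 12 values had been seen. From day 10 to day 12, 79 genes were lower and 1 higher, where 20.7% and 18.7% of all genes were called in these directions. The median log2 fold change was -0.37, or 0.773-fold. From day 12 to day 14, 87 genes were higher and 2 lower, beside 19.9% and 25.3% of all genes, with a median of 0.56 or 1.48-fold. These steps share the day 12 libraries, and 78 genes were called in both, lower first and then higher. By mean log2 CPM, the counts scaled to library size, 85 of the 93 genes had their lowest level among the wound days on day 12. The exceptions were Atp5g1, Atp5j, Cox4i2, Cox6a2, Cox6b2, Cox7a2l, Ndufa4l2 and Ndufaf6. The highest day of the 7 was day 14 for 39 genes, day 3 for 26, day 5 for 17, day 0 for 9 and day 10 for 2. The genes called in both steps and the lowest and highest days were counted for the 93 genes only. The shares of all tested genes with these patterns were not counted, so nothing here sets the chain genes apart by them.

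**Figure D3:**
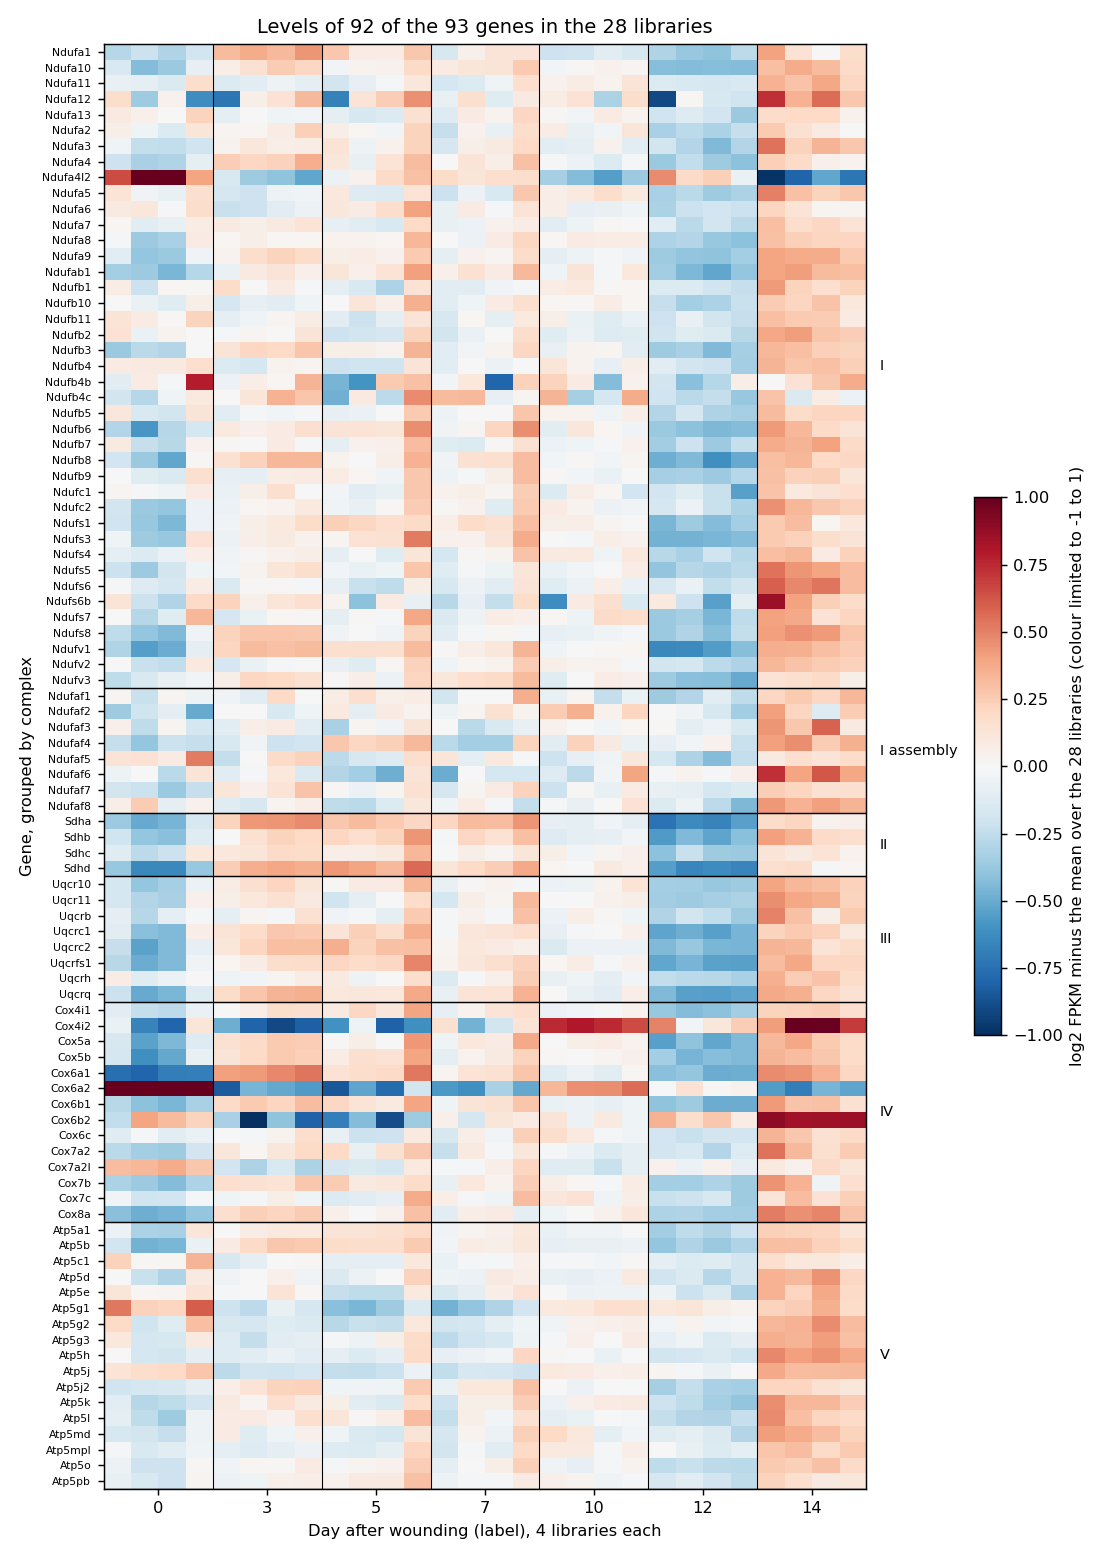
Level of each of 92 of the 93 genes (rows, grouped by complex) in the 28 libraries (columns, by day), as log2 FPKM minus the gene's mean over all libraries, with blue for lower and red for higher values and the colour limited at -1 and 1. The day 12 columns are blue in nearly all rows, and Cox6a2 and Ndufa4l2 are red on day 0.

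Complex I carries the entry of electrons from NADH. Of its 42 subunits, 19 were higher and 2 lower on day 3 (median 0.19). Days 5, 7 and 10 had 20, 17 and 5 higher and 2, 1 and 3 lower. Of all genes, 23.5% were higher and 26.9% lower on day 10. Day 12 had 0 higher and 37 lower (median -0.35), and day 14 had 22 higher and 1 lower (median 0.22). Ndufv1, which binds FMN and oxidises NADH, rose the most of complex I on day 3. It had FPKM of 75.7, 63.8, 66.1 and 87.1 on day 0 and 108, 116, 114 and 116 on day 3. Its 4 libraries of day 12 were at 59.5, 60.1, 63.3 and 69.4, and those of day 14 at 120, 119, 115 and 111. Day 3 and day 14 lay above day 0 in every library, while by FPKM day 12 overlapped with it. With the TMM scaling of the test, all day 12 libraries were below those of day 0. The log2 fold change of Ndufv1 against day 0 was 0.69 on day 3 (SE 0.078, adjusted p = 1.0e-08, edgeR) and -0.36 on day 12 (SE 0.078, adjusted p = 0.00043, edgeR). From day 12 to day 14 it was 0.90 (SE 0.078, adjusted p = 5.6e-10, edgeR), the largest rise of all 93 genes in that step.

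Other core subunits of complex I, which carry iron-sulfur clusters or stand near them, did not all rise early. On day 3, Ndufs8 (0.59), Ndufs1 (0.40) and Ndufs3 (0.24) were higher, while Ndufv2 was at 0.083 (0.20, called, without day 0 replicate 4) and Ndufs7 at 0.0092 without passing the test. The call of Ndufs3 was lost without day 0 replicate 2 (0.17) or 3 (0.16), with upper quartile scaling (0.15), library totals (0.18), no filter (0.22) or the libraries of the comparison alone (0.21), and with day 0 replicates 1 and 4 alone (0.085). On day 12 these 5 and Ndufv1 were lower than on day 0, from -0.21 for Ndufs8 to -0.49 for Ndufs7. From day 12 to day 14 all 6 were higher, from 0.52 for Ndufv2 to 0.90 for Ndufv1. Among the accessory subunits, Ndufab1, the mitochondrial acyl carrier protein, had the largest rise of complex I on days 7 (0.51), 10 (0.35) and 14 (0.59). Ndufa1, a small membrane subunit, had the largest fall of all 93 genes from day 3 to day 7 (-0.38, SE 0.073, adjusted p = 1.0e-04, edgeR).

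Of the 8 assembly factors of complex I, 2 were higher on day 3, where 31.8% of all genes were, and 3 were lower on day 12 (median -0.11), where 25.6% of all genes were. Ndufaf5, which hydroxylates a complex I subunit during assembly, was the lowest of them on day 12 (-0.66, SE 0.11, adjusted p = 2.9e-05, edgeR), with FPKM of 3.28, 2.99, 2.74 and 3.14 against 4.05, 4.10, 3.92 and 5.31 on day 0, which did not overlap. Ndufaf7, a methyltransferase, was higher on days 3 (0.46), 5 (0.32), 7 (0.29) and 14 (0.32), and Ndufaf4 was higher on days 5 (0.57), 10 (0.25) and 14 (0.51). Ndufaf2, a late assembly chaperone, was higher on days 3 (0.29), 5 (0.35), 7 (0.32), 10 (0.44) and 14 (0.35). With day 0 replicates 2 and 3 alone the calls of Ndufaf2 on days 3, 5, 7 and 14 were lost (0.16 to 0.22), as was that on day 7 without day 0 replicate 4 (0.25), and with the libraries of the comparison alone those on days 3, 5 and 7 were lost, as was that of Ndufaf7 on day 7 (0.26). On day 3 Ndufaf2 also did not pass with upper quartile scaling (0.19) or library totals (0.23). The day 10 call of Ndufaf4 was lost without day 0 replicate 2 (0.21) or day 10 replicate 2 (0.19) or 3 (0.23). From day 12 to day 14 all 8 were higher, from 0.33 for Ndufaf7 to 0.62 for Ndufaf8.

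Complex II links the citric acid cycle to the chain, and all of its 4 subunits are encoded in the nucleus. All 4 were higher on days 3 and 5, 3 on day 7 and 2 on day 10. All 4 were lower on day 12, and 3 were higher on day 14. Its median of 0.65 on day 3 (1.57-fold) was the largest of the 6 groups. Sdhd, a membrane anchor, had FPKM of 96.8, 80.6, 80.8 and 97.0 in the day 0 libraries and 170, 166, 158 and 187 in those of day 5. The day 12 libraries held 86.2, 80.4, 81.8 and 79.9, and the day 14 libraries held 141, 143, 125 and 128. Days 5 and 14 lay above day 0 in all libraries, and by FPKM day 12 overlapped with it. Its log2 fold change was 0.98 on day 5 (SE 0.07, adjusted p = 1.9e-12, edgeR), and the step from day 10 to day 12 (-0.75, SE 0.07, adjusted p = 1.4e-09, edgeR) was the largest fall of all 93 genes in that step.

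Sdha, the flavoprotein that oxidises succinate, had FPKM of 126, 114, 117 and 145 in the day 0 libraries. It reached 189, 219, 220 and 225 in those of day 3 and stood at 96.9, 104, 102 and 111 in those of day 12. Every library of day 3 was above and every library of day 12 was below all of day 0. The log2 fold change of Sdha was 0.82 on day 3 (SE 0.069, adjusted p = 3.5e-11, edgeR) and -0.43 on day 12 (SE 0.069, adjusted p = 1.0e-05, edgeR). Sdhb, which carries the iron-sulfur clusters, was at 0.48 and -0.36 on these days, and the anchor Sdhc at 0.32 and -0.37, all called. From day 7 to day 14 no gene of complex II was called higher, and Sdha (-0.32) and Sdhd (-0.27) were lower in that comparison. Without day 7 replicate 4, and also with library totals, Sdhd was at -0.15 and did not pass.

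Complex III moves electrons from ubiquinol to cytochrome c. Of its 8 genes, 7 were higher on day 3, and days 5, 7 and 10 had 6, 6 and 4 higher, with none called lower on these days. All 8 were lower on day 12 (median -0.32) and all 8 were higher on day 14 (median 0.42). Uqcrfs1, the Rieske iron-sulfur protein, had FPKM of 86.9, 74.9, 77.8 and 103 in the day 0 libraries and 107, 111, 119 and 120 in those of day 3. Those of day 12 held 73.7, 76.4, 72.8 and 72.5, and those of day 14 held 131, 138, 122 and 122. Days 3 and 14 were above all day 0 libraries, and by FPKM the day 12 values were close to the lower pair of day 0. With TMM scaling all day 12 libraries were below those of day 0. Uqcrq, a small subunit, had the largest rise of the group on day 3 (0.67) and on day 14 (0.47). The core proteins Uqcrc1 and Uqcrc2 were higher on day 3 (0.48 and 0.60) and lower on day 12 (-0.44 and -0.27). Uqcrh, the hinge protein at cytochrome c1 and the most abundant member of complex III, was at 0.092 on day 3 without passing the test (0.18, called, without day 0 replicate 1) and was lower on day 12 (-0.39).

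Complex IV, cytochrome c oxidase, had isoform genes at both ends of its range. Of its 14 genes, 9 were higher and 3 lower on day 3. Days 5, 7 and 10 had 8, 8 and 7 higher and 3, 2 and 2 lower. Day 12 had 0 higher and 8 lower, and day 14 had 11 higher and 2 lower. The subunits Cox5a and Cox5b (0.57 and 0.59 on day 3), Cox6b1 (0.67), Cox7a2 (0.46) and Cox8a (0.72) rose on day 3. On day 12, Cox5a (-0.31), Cox5b (-0.24) and Cox6b1 (-0.22) were lower than on day 0, while Cox7a2 (-0.042) and Cox8a (-0.026) did not pass the test. The calls of Cox5a and Cox6b1 were lost in 2 of 8 cases with 1 library left out, and that of Cox5b in 5 of 8, with values from -0.32 to -0.13. Cox4i1, the main regulatory subunit, was higher on day 3 (0.33) and lower on day 12 (-0.37).

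Cox6a exists as Cox6a1 (chr5:115345652-115348958, GRCm38.p6), used in most tissues, and Cox6a2 (chr7:128205435-128206366), the form of heart and skeletal muscle. Cox6a2 had FPKM of 180, 133, 137 and 241 on day 0, and its highest value on any later day was 74.1, on day 10. Cox6a1 had 235, 228, 245 and 246 on day 0 and 526, 532, 552 and 572 on day 3. Its 4 libraries were at 364, 380, 367 and 400 on day 10, at 296, 302, 281 and 282 on day 12 and at 550, 541, 504 and 456 on day 14. Cox6a1 was therefore above every day 0 library on each of these days, day 12 included. Its log2 fold change was 1.25 on day 3 (SE 0.075, adjusted p = 3.1e-14, edgeR) and 0.14 on day 12 (SE 0.074, adjusted p = 0.126, edgeR). With library totals the day 12 value of Cox6a1 was 0.28 and passed the test (adjusted p = 0.0016, edgeR). Cox6a2 was lower on all 6 days, by -2.31 on day 3 (SE 0.15, adjusted p = 1.2e-13, edgeR), -1.38 on day 10 and -2.46 on day 14.

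Cox6a2 made up 41.4% ± 6.35 (SD, n = 4) of the summed FPKM of the pair on day 0. Its share was 5.78% ± 0.573 on day 3, and 15.4% ± 0.434 and 15.2% ± 0.495 for days 10 and 12. Day 14 had 6.30% ± 0.776. A ratio within a library does not depend on how libraries are scaled. The log2 ratio of Cox6a2 to Cox6a1 was lower than on day 0 by between -1.95 (day 10) and -3.52 (day 3), with no overlap on any of the 6 days. Each exact two-sided permutation test of 4 libraries against 4 gave p = 0.029, the smallest it can give, and adjusted p = 0.037 over 18 comparisons of 3 isoform pairs. The summed FPKM of the 14 skeletal muscle markers fell beside it, from between 16003 and 26697 on day 0 to between 3177 and 4106 on day 3. Its range was 7650 to 9312 for day 10, 6049 to 6808 for day 12 and 4343 to 5027 for day 14. The part of muscle tissue in the isoform change was not tested.

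**Figure D4:**
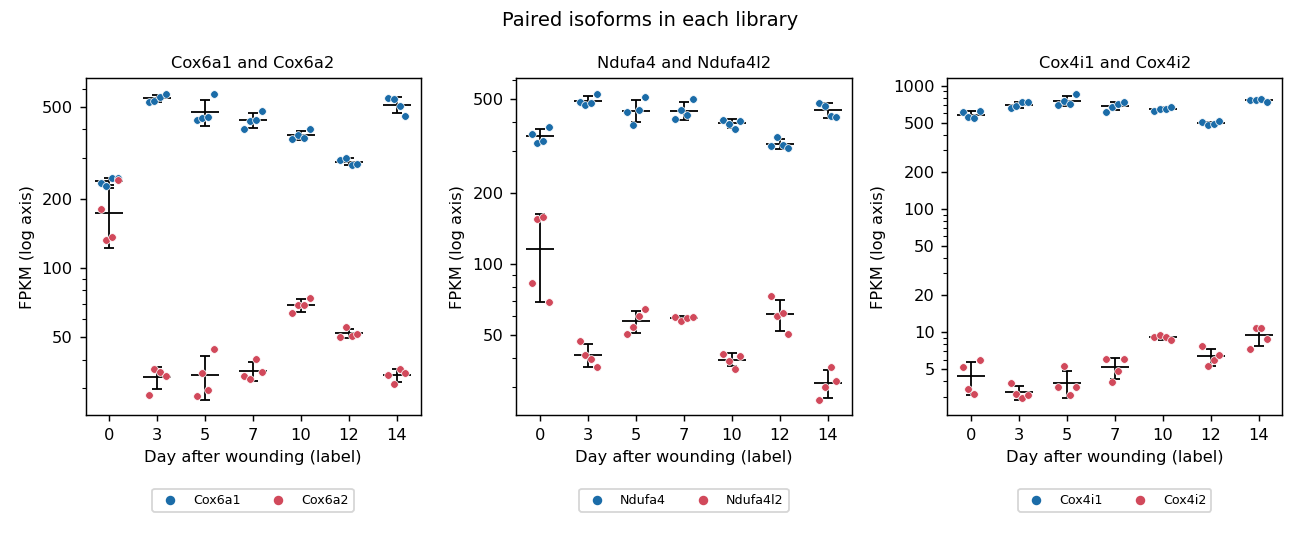
FPKM on a log axis (y axis) of 3 pairs of related genes in each library by day (x axis), with the common form in blue and the tissue or condition form in red, and the mean (bar) and SD (whiskers) of 4 libraries. Cox6a2 falls from between 133 and 241 on day 0 to between 28.2 and 36.5 on day 3 while Cox6a1 rises from between 228 and 246 to between 526 and 572.

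Cox4i2 (chr2:152753916-152765039, GRCm38.p6), the form of COX4 linked to low oxygen and abundant in lung, was low throughout. It had FPKM of 5.21, 3.43, 3.15 and 5.92 on day 0 and 9.17, 9.53, 9.15 and 8.56 on day 10, which did not overlap. On day 14 it had 7.29, 10.8, 10.8 and 8.85. The log2 fold change of Cox4i2 was 0.99 on day 10 (SE 0.19, adjusted p = 9.0e-05, edgeR) and 0.97 on day 14 (SE 0.19, adjusted p = 7.5e-05, edgeR), and -0.38 on day 3 without passing the test. Without day 0 replicate 2 or 3 that value was -0.49 or -0.52 and passed, as did -0.47 with upper quartile scaling. Its share of the Cox4i1 and Cox4i2 sum was 0.746% ± 0.179 (SD, n = 4) for day 0 and rose to 1.39% ± 0.0947 by day 10. The log2 ratio of Cox4i2 to Cox4i1 differed from day 0 by 0.94, 0.78 and 0.74 on days 10, 12 and 14, each with exact permutation p = 0.029 and adjusted p = 0.037. On days 3, 5 and 7 it differed by -0.67, -0.54 and 0.032, with exact permutation p of 0.057, 0.114 and 0.857.

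Cox6b2, known from testis, ranged in FPKM from 3.80 to 5.95 for day 0, from 1.82 to 3.60 for day 3 and from 8.10 to 8.41 for day 14. It was lower on day 3 (-0.80) and higher on day 14 (0.54), while the common form Cox6b1 was higher on both days (0.67 and 0.53). With replicates 2 and 3 as the only day 0 libraries the day 14 value of Cox6b2 (0.38) did not pass. Cox7a2l, known for joining complexes III and IV into supercomplexes, a role impaired in C57BL/6 mice, was lower than on day 0 on all 6 days. Its FPKM was 181, 184, 189 and 176 in the day 0 libraries, all above the 128, 118, 131 and 117 of day 3, with a log2 fold change of -0.51 on day 3 (SE 0.065, adjusted p = 1.1e-07, edgeR). The day 12 libraries of Cox7a2l, at 150, 140, 150 and 138, were also below all of day 0, and the step from day 10 to day 12 (0.041) did not pass the test.

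Ndufa4l2 (chr10:127509274-127517154, GRCm38.p6), a relative of Ndufa4 that is known to be induced when oxygen is low and is common in pericytes, was lower on all 6 days. Its day 0 libraries were far apart, with FPKM of 82.8, 155, 158 and 69.0. The higher pair of values belongs to replicates 2 and 3, the libraries with more fibroblast and less muscle marker signal. On day 3 it had 47.3, 41.1, 39.7 and 36.6, on day 12 it had 72.9, 60.0, 61.9 and 50.3, and on day 14 it had 26.6, 30.1, 36.7 and 31.8. Days 3 and 14 were below all of day 0, whereas by FPKM 1 day 12 library was above the lowest of day 0. The log2 fold change of Ndufa4l2 was -1.44 on day 3 (SE 0.18, adjusted p = 5.0e-08, edgeR) and -2.02 on day 14 (SE 0.18, adjusted p = 1.8e-10, edgeR). From day 10 to day 12 it rose by 0.55, the only gene of the 93 called higher in that step, although without day 12 replicate 1 its 0.44 did not pass the test, and from day 12 to day 14 it was lower (-0.95). Ndufa4 went the other way, at 0.55 on day 3, -0.38 from day 10 to day 12 and 0.49 from day 12 to day 14.

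The log2 ratio of Ndufa4l2 to Ndufa4 was lower than on day 0 by -1.90, -1.29, -1.24, -1.65 and -2.17 on days 3, 5, 7, 10 and 14, each with exact permutation p = 0.029 and adjusted p = 0.037. On day 12 the difference was -0.73 (exact permutation p = 0.114). Ndufa4l2 made up 24.6% ± 8.83 (SD, n = 4) of the pair's summed FPKM for day 0, 15.9% ± 2.07 for day 12 and 6.56% ± 1.19 for day 14.

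Complex V makes ATP with a catalytic head, a stalk and a proton-driven ring. Of its 17 genes, 8 were higher and 3 lower on day 3. Days 5, 7 and 10 had 7, 5 and 1 higher and 4, 3 and 3 lower, where on day 10 23.5% of all genes were higher and 26.9% lower. Day 12 had 0 higher and 15 lower, and day 14 had 11 higher and 2 lower. Atp5b had FPKM of 634, 523, 528 and 691 in the day 0 libraries and 768, 829, 874 and 870 in those of day 3. Those of day 12 held 554, 589, 562 and 589, and those of day 14 held 896, 891, 851 and 824. Days 3 and 14 were above all of day 0, and by FPKM day 12 lay within its range. The log2 fold change of Atp5b was 0.55 on day 3 (SE 0.07, adjusted p = 9.3e-08, edgeR) and -0.20 on day 12 (SE 0.07, adjusted p = 0.023, edgeR). The alpha subunit Atp5a1 was at 0.25 and -0.29 on these days, both called. With the libraries of the comparison alone its day 3 value was 0.23 (adjusted p = 0.074, edgeR), and with day 0 replicates 1 and 4 alone it was 0.13 (adjusted p = 0.054, edgeR).

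Atp5g1, one of several genes that encode the same c-ring protein, was lower on all 6 days. Its FPKM was 94.4, 76.9, 75.7 and 99.3 in the day 0 libraries. It was 47.2, 49.8, 53.0 and 57.4 in those of day 7 and 76.5, 77.5, 83.5 and 74.4 in those of day 14. Day 7 was below all of day 0 and day 14 overlapped with it, with log2 fold changes of -0.74 (SE 0.083, adjusted p = 1.8e-08, edgeR) and -0.28. Without day 0 replicate 1 or 4 the day 14 value of Atp5g1 was -0.15 or -0.13 and did not pass. Nor did it with library totals (-0.15), the libraries of the comparison alone (-0.21) or day 0 replicates 2 and 3 alone (-0.088). Atp5g2, which encodes the same ring protein, did not pass the test on days 3 to 10 or 14, with values between -0.19 and 0.18. This depended on the setting. On day 14 it was called higher with DESeq2 (0.22, adjusted p = 0.039), upper quartile scaling (0.23), library totals (0.31), no filter (0.22) and DESeq2 size factors (0.22), and without day 0 replicate 1 (0.31) or 4 (0.35). It was called lower on days 3, 5 and 7 without day 0 replicate 2 or 3 (-0.26 to -0.21), on days 3 and 5 with upper quartile scaling or library totals (-0.24 to -0.21) and on day 5 without day 5 replicate 4 (-0.27). With day 0 replicates 1 and 4 alone Atp5g2 was called lower on days 3, 5, 7 and 10 (-0.30, -0.35, -0.38 and -0.27), and with replicates 2 and 3 alone it was called higher on day 14 (0.41). From day 10 to day 12, Atp5g1 (-0.15) and Atp5g2 (-0.14) were the only complex V genes that did not pass the test, and with the libraries of the comparison alone both passed (-0.13 and -0.12).

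The low values of day 12 and the high values around it stood beside changes in fat and other cell markers. Ucp1, the uncoupling protein that defines brown fat, had a mean FPKM of 0.423 ± 0.314 (SD, n = 4) on day 0 and 1054 ± 66.4 on day 5. The means for days 10, 12 and 14 were 187 ± 6.81, 4.93 ± 1.54 and 345 ± 57.8. The summed FPKM of the 6 brown fat markers ranged from 107 to 134 for day 0, from 626 to 804 for day 3, from 1313 to 1526 for day 5 and from 533 to 634 for day 7. It ranged from 412 to 423 for day 10, from 93.2 to 105 for day 12 and from 526 to 676 for day 14. Of these 6, 4 were lower and none higher from day 10 to day 12, and 4 were higher and 1 lower from day 12 to day 14. Against day 0, 3 of the 6 were higher and 2 lower both on day 3 and on day 12 (median 0.094 on day 12). The low sum of day 12 therefore does not stand for each marker. Of the 8 white fat markers, 7 were lower and 1 higher in the first step and all 8 were higher in the second. None of the brown fat, white fat or muscle markers was at 0 counts in any library.

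**Figure D5:**
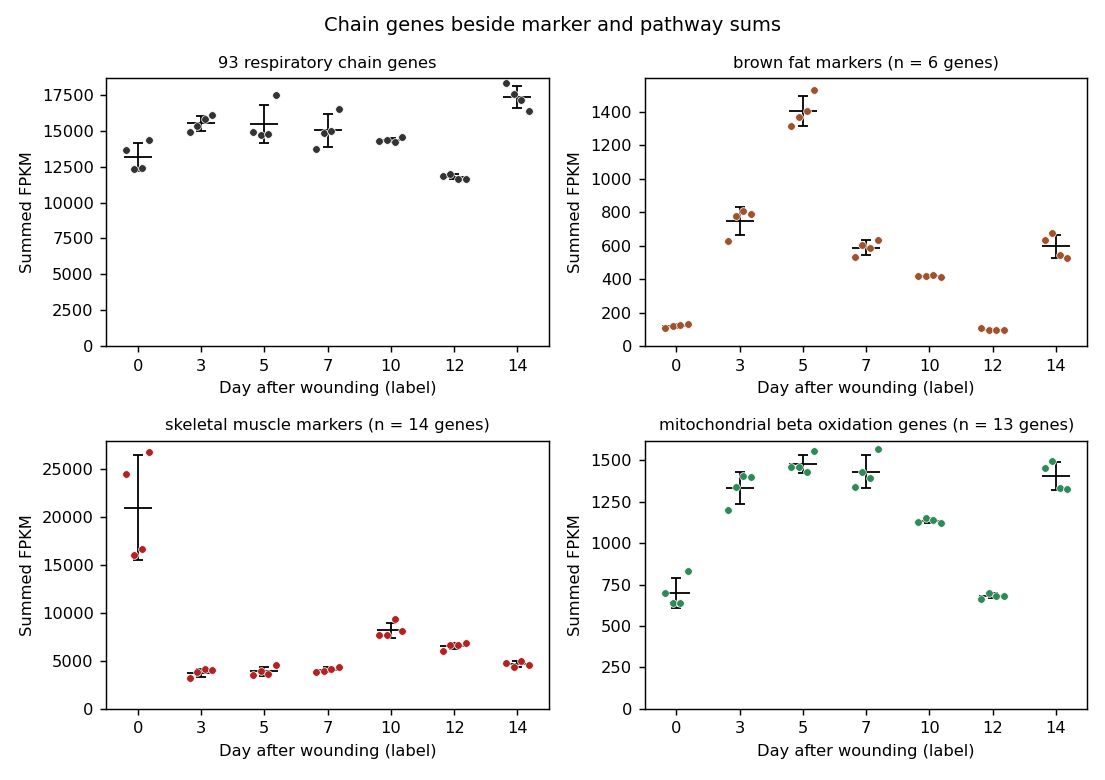
Summed FPKM (y axis, from 0) of the 93 chain genes, 6 brown fat markers, 14 skeletal muscle markers and 13 beta oxidation genes in each library by day (x axis), with the mean (bar) and SD (whiskers) of 4 libraries. The sums of chain genes, brown fat markers and beta oxidation genes are all low on day 12, while that of muscle markers is highest on day 0.

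Other cell markers moved differently in these steps. The summed FPKM of 8 hair follicle markers went from a range of 126 to 147 for day 10 to one of 2119 to 2852 for day 12, and all 8 were higher. That of 8 fibroblast markers went from 8999 to 10131 for day 12 down to 3624 to 4076 for day 14, and all 8 were lower. Of 8 macrophage markers, 3 were higher and 2 lower in the first step and all 8 were lower in the second. Of 8 neutrophil markers, 7 were lower and 1 higher in the first step and 5 were lower in the second. All 6 red cell markers were lower from day 10 to day 12. Of 8 keratinocyte markers, 5 were higher and 1 lower in the first step and 2 were higher and 3 lower in the second. Of 8 cell cycle markers, 1 was higher in the first step and all 8 in the second. The part of each cell type in the levels of the chain genes was not tested.

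Other mitochondrial pathways were counted in the same fit. Cytochrome c (Cycs) and cytochrome c1 (Cyc1), the electron transfer flavoprotein genes, and the isoforms Cox7a1 and Cox8b of muscle and brown fat form a list of 7 chain genes outside the name rule. All 7 were higher on days 3, 5, 7 and 14, 4 were lower on day 12 (median -0.25), and all 7 were lower from day 10 to day 12 and higher from day 12 to day 14. Against day 0, Cycs was at 0.67, 1.06, -0.27 and 0.53 on days 3, 5, 12 and 14, and Cox8b was at 1.31, 1.00, -1.27 and 0.75.

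Of 18 citric acid cycle genes, which feed electrons to the chain, 17, 18, 17 and 15 were higher on days 3, 5, 7 and 10. On day 12, 14 were lower, and on day 14, 16 were higher and 1 lower. All 18 fell from day 10 to day 12 with a median of -0.59, and 17 rose from day 12 to day 14 with a median of 0.74. Of the 12 tested mitochondrial beta oxidation genes, which burn fatty acids, 11 were higher on day 3 and all 12 on days 5, 7, 10 and 14. On day 12, 7 were lower and 1 higher. Their medians were 1.19 on day 3 and 0.84 on day 14, against 0.20 and 0.28 for the 93 chain genes.

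Mitochondrial ribosomal protein genes serve translation of the mitochondrially encoded subunits. Of 78, 41 were higher and 1 lower on day 3, 5 were higher and 19 lower on day 12 (median -0.088, the latter count near the 25.6% of all genes) and 63 were higher and none lower on day 14 (median 0.33). Of 32 further assembly genes, 14 were higher and 4 lower on day 3, 11 were lower on day 12 and 12 were higher and 1 lower on day 14. Their medians on these days were 0.12, -0.12 and 0.092. Of all genes, 31.8% were higher on day 3, 25.6% lower on day 12 and 28.2% higher on day 14. Of 20 glycolysis and hypoxia genes, 14 were higher and 3 lower on day 3, 1 was higher and 15 lower on day 12, and 4 were higher and 13 lower on day 14, where most chain genes were higher.

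Of 15 regulators of mitochondrial biogenesis, 7 were higher and 1 lower on day 3, 5 were higher and 6 lower on day 12 and 10 were higher and 2 lower on day 14. On day 12 their median was -0.03, and 21.7% of all genes were higher and 25.6% lower. The coactivator Ppargc1b, which drives mitochondrial genes, was at 0.64 on day 3, -0.61 on day 12, -1.32 from day 10 to day 12 and 1.04 from day 12 to day 14. Esrra, its nuclear receptor partner, was at 0.26 on day 3, -0.33 on day 12, -0.45 from day 10 to day 12 and 0.52 from day 12 to day 14. With day 0 replicates 1 and 4 alone the day 3 value of Esrra was 0.16 and did not pass. Nrf1 itself was at 0.21 on day 3, 0.23 on day 12, 0.27 from day 10 to day 12 and 0.017 from day 12 to day 14, the last without passing the test, and with upper quartile scaling its day 3 value of 0.12 did not pass. Gabpa, which binds the ETS letters, was at 0.24 on day 12 and did not pass the test in either step (0.12 and -0.05). From day 10 to day 12 Gabpa was called higher with library totals (0.21) and with the libraries of the comparison alone (0.13), and with the latter its day 12 call against day 0 was lost (adjusted p = 0.063, edgeR). Tfam, which maintains mitochondrial DNA, was at 0.014 on day 12 without passing the test (0.16, called, with library totals) and was higher on day 14 (0.31). These 5 regulators were named after their values had been seen.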

How the data were processed

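Total RNA was extracted with TRIzol and made into libraries with the VAHTS Universal V6 kit. The deposited counts are whole reads per gene symbol, not normalized, and the deposited FPKM values are those counts scaled by the authors to gene length and library total. The submitters' processing notes name fastp, R 3.2.0 and mm10, and the study's methods name DESeq2. The aligner, the counting tool, the annotation and the strand setting are not given in the sources used here. Totals ran from 36706513 to 40655764 counts, and for members with few counts (43 in the lowest library) counting error is part of the spread.

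Here the counts of all 28 libraries entered 1 edgeR 4.0.16 quasi-likelihood fit (R 4.3.3) with TMM scaling, filterByExpr and 21 residual degrees of freedom. P-values were adjusted by Benjamini-Hochberg over 18107 tested genes of 29068, and an adjusted p under 0.05 was a call. FPKM served for levels, marker sums and isoform ratios, which were tested by exact two-sided permutation. Alternatives were DESeq2 1.42.0, 3 other scalings, 2 other filters, the libraries of a comparison alone, a replicate block, each library left out, and the criteria of the study's methods. The fit was tested on simulated counts.

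The members and gene lists were chosen with earlier results of these data known. Named were the Sdh genes, the isoforms and their partners, the most abundant gene of each complex, the extremes of each complex in each comparison, core subunits of complex I, Uqcrc1, Uqcrc2, Uqcrfs1 and the alpha and beta subunits of ATP synthase. Atp5k, Atp5g2, Ndufa11 and Ndufaf4 are also shown for their promoters. The steps from day 10 to 12 and from day 12 to 14, and the fits with 2 of the day 0 libraries, were added after the data were seen. No pair of libraries of 1 day agreed within counting noise (lowest median chi-square per gene 1.47, against 0.455 for counting alone). Values of 1 gene are not reported here.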

Additional observations from a re-analysis of the deposited data

Results flagged for a closer look

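Of 336 groups of 4 libraries tested, 23 had 1 library farther from the others than Dixon's 95% limit, which chance exceeds in about 1 in 20 groups, or 17 of these. Day 5 replicate 4 was the highest of its day for the summed FPKM of complex I subunits (5264, the others 4311 to 4403), complex II (757, the others 679 to 688), complex III (1996, the others 1704 to 1718), complex IV (4564, the others 3739 to 3810), complex V (4837, the others 4152 to 4202) and all 93 genes (17492, the others 14698 to 14882). The same library was the highest in FPKM of Atp5b (869), Atp5c1 (166), Atp5g2 (208), Cox5a (54.2), Cox6a1 (569), Cox7a2l (156), Cox8a (404), Ndufs8 (90.4), Ndufv1 (116), Sdhc (169) and Uqcrq (145). These values come from the same library and are not separate observations.

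Of the other days, Atp5g2 was high in day 12 replicate 2 (198, the others 189 to 190). Ndufaf4 was low in day 0 replicate 2 (4.21, the others 4.70 to 4.76) and high in day 7 replicate 4 (6.42, the others 4.35 to 4.57). Ndufaf5 was high in day 0 replicate 4 (5.31, the others 3.92 to 4.10). Ndufs8 was low in day 3 replicate 1 (90.3, the others 93.4 to 93.8), and Uqcrc2 was low in day 10 replicate 1 (117, the others all 124).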

How the results depend on the processing

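Under the other scalings, filters and tools, the replicate block and the libraries of a comparison alone, 63 (library totals) to 84 genes were lower and 1 higher from day 10 to day 12 (median -0.41 to -0.28). From day 12 to day 14, 87 to 89 were higher and 2 lower (median 0.55 to 0.61). The criteria of the study's methods left 0 genes in each step. Those criteria left 0 higher and 1 lower on days 3, 5, 7 and 10, 1 lower on day 12, 0 higher and 2 lower on day 14, and 0 either way from day 3 to 7 and from day 7 to 14.

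With library totals only, 37 genes were higher on day 10, 2 were higher and 38 lower on day 12 (median -0.15), 3 were lower on day 14 (median 0.40), 4 were lower from day 3 to 7, and 55 were higher and 2 lower from day 7 to 14 (median 0.20). With the libraries of a comparison alone, 6 were lower on day 5, 24 higher on day 7, 3 lower on day 14, 23 lower from day 3 to 7 and 45 higher from day 7 to 14. From day 3 to 7, DESeq2 and its size factors in edgeR each gave 24 lower genes and upper quartile scaling gave 4. With day 0 replicates 1 and 4 alone, 24 were higher on day 7 (median 0.057) and 7 on day 10, where the median turned to -0.024. With replicates 2 and 3 alone, 6 were lower on day 5, the median was 0.27 on day 7, 41 were higher and 4 lower on day 10 (median 0.18), 1 was higher and 43 lower on day 12 (median -0.18), and 3 were lower on day 14 (median 0.39). The cause of these shifts was not tested.

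Leaving out 1 library gave 6 to 15 lower genes on day 5, 12 to 32 higher on day 10, 0 to 1 higher on day 12, 3 to 5 lower on day 14 (median 0.23 to 0.39), 1 to 4 higher and 10 to 37 lower from day 3 to 7, 17 to 51 higher and 2 to 4 lower from day 7 to 14 (median 0.057 to 0.22) and 0 to 1 higher from day 10 to 12. The day 7 log2 ratio of Cox4i2 to Cox4i1 ran from -0.098 to 0.15.

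Genes near 0 changed sign. Against day 0 on day 3, Ndufs7 was at -0.08 (upper quartile), -0.048 (library totals), -0.0025 (no filter), -0.012 (at least 10 counts in every library), -0.016 (libraries alone) and -0.12 (replicates 1 and 4), and Ndufv2 at -0.0054 (upper quartile) and -0.0089 (replicates 1 and 4). With replicates 2 and 3, Cox4i2 was at 0.048 on day 3, and Atp5g2 at 0.076, 0.06, 0.041, 0.15 and 0.012 on days 3, 5, 7, 10 and 12. On day 12, Cox7a2 and Cox8a were at 0.10 and 0.12 with library totals and at 0.022 and 0.017 with replicates 2 and 3, Cox5b at 0.0055 with replicates 2 and 3, and Tfam at -0.061 with replicates 1 and 4. From day 12 to 14, Nrf1 was at -0.0004 with library totals. Leaving out 1 library gave a range of -0.073 to 0.19 for Ndufs7 on day 3 (-0.03 without day 0 replicate 3) and of -0.16 to 0.013 for Atp5g2 on day 10. On day 12 the ranges were -0.04 to 0.0081 for Cox8a (0.0026 without day 0 replicate 1), -0.06 to 0.0059 for Cox7a2 and -0.022 to 0.081 for Tfam.

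Libraries with the same replicate number did not clearly deviate together (median correlation -0.000911, range -0.0762 to 0.177, 8 of 28 libraries closest to their own number). The labels give them only a common number, and this check cannot exclude a small shared effect. With the replicate block, 49 genes were higher and 8 lower on day 3, and no count moved by over 1.5 times. Exact tests of isoform ratios within numbered pairs can give no p under 0.125, and without 1 library none under 0.0571. No member had a count of 0 in any library, so the alternative floor for such counts gave no value.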
